A study of Homo sapiens with 6 samples.

Results

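A set of 10 genes that report the output of the EGFR-RAS-MAPK pathway were examined in cells labelled H1975, a human lung adenocarcinoma line, after knockout of YTHDC2, an RNA helicase that reads the m6A mark. They were taken by gene symbol from the deposited table, and all 10 of the 10 listed symbols were found among its 16760 genes. The list holds the phosphatases DUSP4 and DUSP6, the feedback inhibitors SPRY2, SPRY4 and SPRED1, the ETS factors ETV4 and ETV5, the immediate early factors EGR1 and FOS, and MYC. Total RNA was sequenced from YTHDC2 knockout cells (3 libraries) and from WT cells (3 libraries), with no agent or time point given by the labels. The study made its knockout cells with a CRISPR plasmid, and the sources used here do not say whether they came from 1 clone. The labels also do not say whether the 3 libraries of a genotype came from separate cultures, so the p-values measure the spread between these libraries, which may be technical. In such bulk RNA, fewer cells that express a gene and less of its RNA per cell cannot be told apart.

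Signals from EGFR pass through RAS to the kinases RAF, MEK and ERK, and active ERK switches on a set of genes within minutes to hours. Part of this set, such as FOS and EGR1, encodes transcription factors. Another part, the DUSP, Sprouty and SPRED genes, encodes proteins that dampen the same pathway, so their transcripts are often read as a gauge of ERK output. MYC is a growth-promoting transcription factor that acts with its partner MAX, and many other signals besides ERK control its level.

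The YTHDC2 transcript was still present in knockout, at 7.82, 8.92 and 8.14 FPKM (fragments per kilobase of gene, scaled to sequencing depth), against 13.0, 17.1 and 201.3 FPKM in WT. WT replicate 3 thus stood far above the rest of the WT libraries for the targeted gene, and which members rose is given with and without it. The limma log2 fold change of YTHDC2 was -2.09 with a standard error of 1.17 (adjusted p = 0.228), and the groups did not overlap (exact two-sided permutation p = 0.1, the smallest that 3 against 3 allow). Without WT replicate 3 the change was smaller and passed (-0.84, limma adjusted p = 0.00223). Depth was 27201555 to 33824967 fragments per library. Of 16 lung epithelial markers, 14 were listed and 9 of these averaged under 1 FPKM, low levels for cells labelled as a lung adenocarcinoma line, whereas KRT8 averaged 90.1 FPKM. Of the 11 epithelial markers tested, 2 rose and 5 fell, and their sum was 173.9 to 182.2 FPKM in knockout and 145.7 to 158.7 FPKM in WT. The keratin gene KRT19 fell from 1.02 to 0.0142 FPKM in the mean and the adhesion gene EPCAM from 0.818 to 0.246 FPKM, while KRT8 rose from 82.5 to 97.6 FPKM. The 6 listed immune markers summed to 2.14 to 2.71 FPKM in knockout and 3.31 to 4.03 FPKM in WT, and PTPRC, the leukocyte marker CD45, was near 0. The 8 fibroblast and endothelial markers summed to 6.65 to 6.87 FPKM in knockout and 7.63 to 8.70 FPKM in WT, and the part that these marker differences have in the results was not tested.

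MYC, DUSP4 and ETV4 rose in YTHDC2 knockout cells, each by more than 2 times in mean FPKM, and none of the 10 genes fell. EGR1, FOS, SPRED1, DUSP6, SPRY2 and SPRY4 did not pass the test, nor did ETV5, whose adjusted p was 0.0569. A gene was said to rise or fall at a limma adjusted p under 0.05 over all 15441 genes tested, and those that also had an absolute log2 fold change above 1 met both thresholds that the study states. All 10 genes entered the test, and the 3 that rose met both thresholds. Among all genes tested, 16.6% rose and 26.2% fell, while 0.732% met both thresholds as higher and 1.99% as lower. The median log2 fold change was 0.25 over the 10 genes and -0.09 over all genes tested. Every knockout library lay above every WT library for 4 of the 10 genes, and for 20.7% of all genes tested. No member had the opposite order, which 33.1% of all genes tested showed. Without WT replicate 3 the same MYC, DUSP4 and ETV4 rose and met both thresholds, and no other member passed.

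**Figure D1:**
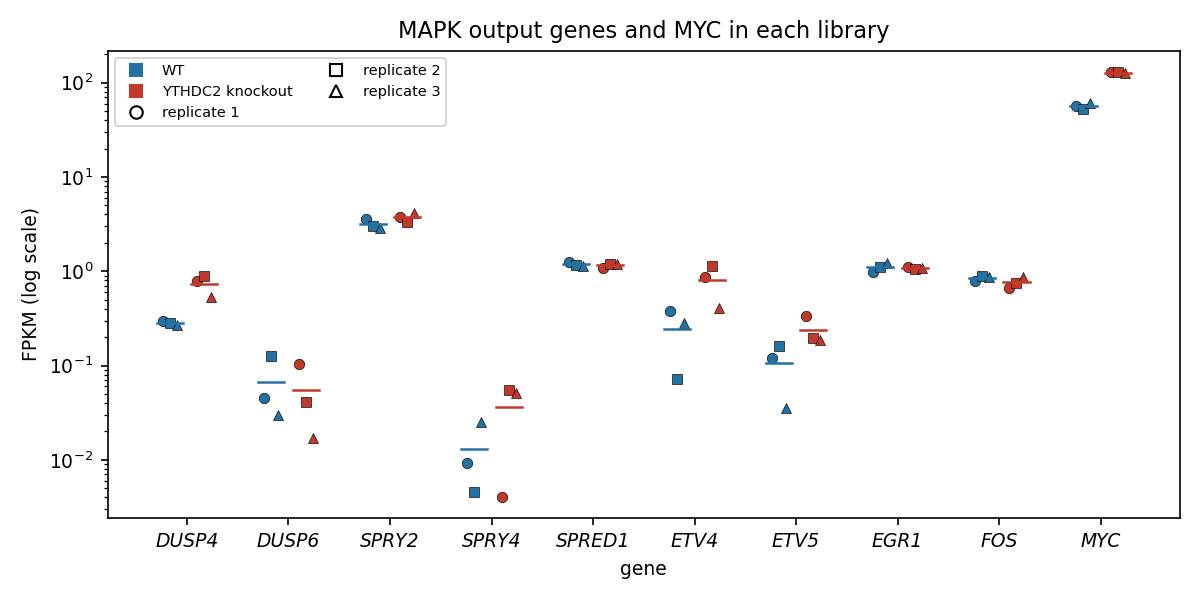
FPKM (y axis, log scale) of the 10 genes in each library, with WT in blue and YTHDC2 knockout in red, a marker shape for each replicate number (circle 1, square 2, triangle 3) and a line at each group's mean. MYC lies far above the others, and the red and blue points separate for MYC, DUSP4, ETV4 and ETV5.

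DUSP4 and DUSP6 encode phosphatases that remove the activating phosphates from MAP kinases, DUSP6 in the cytoplasm with a preference for ERK and DUSP4 in the nucleus. DUSP4 (ENSG00000120875, chromosome 8, 29333064 to 29350668, GENCODE 29 on GRCh38) measured 0.780, 0.887 and 0.533 FPKM in knockout replicates 1, 2 and 3. In WT replicates 1, 2 and 3 it measured 0.298, 0.282 and 0.270 FPKM. The WT libraries were thus close to each other, and the lowest knockout library was still above all of them. The means were 0.733 ± 0.181 FPKM (knockout) and 0.283 ± 0.0139 FPKM (WT), each with its SD at n = 3, a ratio of 2.59. The log2 fold change on log2(FPKM + 0.1), a scale that understates the change of low genes, was 1.10 with a standard error of 0.21 (limma adjusted p = 0.00284). Behind these levels were 535 fragments in knockout and 183 in WT. Without knockout replicate 2 the log2 fold change was 0.96, so DUSP4 still rose but no longer met both thresholds.

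DUSP6 (ENSG00000139318, chromosome 12, 89347232 to 89353271) was barely detected in either genotype. It measured 0.105, 0.0414 and 0.0170 FPKM in knockout and 0.0452, 0.126 and 0.0301 FPKM in WT. The groups overlapped fully, with the highest value in a WT library. Only 20 fragments (knockout) and 22 fragments (WT) lay behind these levels, which gave a ratio per depth of 0.806. The 95% counting interval, which is exact (Clopper-Pearson) and covers counting error only, was 0.417 to 1.55, so a change smaller than these limits was not detectable at this depth. Its log2 fold change was -0.11 (standard error 0.28, limma adjusted p = 0.785). By mean FPKM over the 6 libraries, 16.4% of all genes in the table lay below DUSP6.

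SPRY2 and SPRY4 belong to the Sprouty family, which blocks the signal between receptors and RAS, and SPRED1 is a relative that recruits neurofibromin to RAS. SPRY2 (ENSG00000136158, chromosome 13, 80335976 to 80340951) was the most abundant of the feedback inhibitors among the members. It measured 3.77, 3.36 and 4.13 FPKM in knockout and 3.56, 2.99 and 2.88 FPKM in WT. The lowest knockout library was below WT replicate 1, so the groups overlapped. The log2 fold change was 0.25 (standard error 0.12, limma adjusted p = 0.118). Leaving out WT replicate 1 gave 0.34, which passed (limma adjusted p = 0.0349). This was the only 1 of 17 alternatives in which SPRY2 passed, and without WT replicate 3 it gave 0.19 (limma adjusted p = 0.286). SPRED1 (ENSG00000166068, chromosome 15, 38252326 to 38357249) measured 1.09, 1.19 and 1.18 FPKM in knockout and 1.26, 1.17 and 1.15 FPKM in WT. These 6 values lay close together and overlapped, with 1024 fragments in knockout and 941 in WT. The ratio per depth was 0.965 with a counting interval of 0.882 to 1.06, and the log2 fold change was -0.05 (standard error 0.13, limma adjusted p = 0.801). SPRY4 (ENSG00000187678, chromosome 5, 142310427 to 142326455) was the lowest of the 10 genes. It measured 0.00408, 0.0545 and 0.0516 FPKM in knockout and 0.00916, 0.00455 and 0.0254 FPKM in WT. Knockout replicate 1 held 1 fragment and knockout replicates 2 and 3 held 13 and 12, so the knockout libraries differed more from each other than the group means did. With 26 fragments in knockout and 8 in WT, the ratio per depth was 2.88 (counting interval 1.27 to 7.36), which leaves out the spread between libraries. The limma log2 fold change was 0.26 (standard error 0.22, adjusted p = 0.382). An antisense gene, SPRY4-AS1, overlaps SPRY4, and without a stated strand setting their fragments cannot be told apart.

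ETV4 and ETV5 encode ETS factors of the PEA3 group, which are induced by receptor tyrosine kinase signaling and bind DNA to carry its program forward. ETV4 (ENSG00000175832, chromosome 17, 43527844 to 43579620) measured 0.862, 1.14 and 0.408 FPKM in knockout and 0.375, 0.0721 and 0.282 FPKM in WT. Knockout replicate 3 was only slightly above WT replicate 1, and each genotype spread widely. The means were 0.803 ± 0.369 FPKM (knockout) and 0.243 ± 0.155 FPKM (WT), each with its SD at n = 3, a ratio of 3.31, from 219 and 58 fragments. The log2 fold change of 1.43 was the largest of the 10 genes and had the largest standard error, 0.42 (limma adjusted p = 0.0233). ETV4 did not pass without knockout replicate 1 (limma adjusted p = 0.0716), knockout replicate 2 (0.0768) or WT replicate 2 (0.0689). It overlaps DHX8, a helicase gene on the other strand that measured 24.9 ± 0.0736 FPKM (knockout) and 24.6 ± 1.62 FPKM (WT), each with its SD at n = 3, and fragments of this pair cannot be told apart here.

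ETV5 (ENSG00000244405, chromosome 3, 186046308 to 186110318) measured 0.337, 0.198 and 0.188 FPKM in knockout and 0.121, 0.160 and 0.0356 FPKM in WT. The groups did not overlap, although knockout replicate 3 and WT replicate 2 were near each other. Its log2 fold change was 0.76 (standard error 0.28), and the limma adjusted p of 0.0569 missed the threshold. The ratio of fragments per depth was 2.25 (counting interval 1.54 to 3.35), from 99 fragments in knockout and 39 in WT. ETV5 passed when WT replicate 2 was left out (limma adjusted p = 0.0407), and without WT replicate 3 its log2 fold change was 0.49 (limma adjusted p = 0.170). ETV5-AS1 and DGKG overlap ETV5, and DGKG measured 0.0274 ± 0.0145 FPKM (knockout) and 0.0673 ± 0.0349 FPKM (WT), each with its SD at n = 3.

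EGR1 and FOS encode the zinc finger and the leucine zipper factors that cells transcribe first after a growth signal. The textbook route runs from ERK to factors that bind with SRF at the CArG box of such genes. EGR1 is shown because its promoter holds this box, and FOS because its promoter holds the core of a cAMP response site and a TATA box. The stretches are from RefSeq, GRCh38.p14, both on the plus strand and written 5′ to 3′, at chr5:138465364-138465415 for EGR1 and chr14:75278754-75278810 for FOS. They run from base -115 to -64 and from base -74 to -18 relative to the start site, with CArG boxes in capitals for EGR1 and TGACG and TATAAA in capitals for FOS:
EGR1: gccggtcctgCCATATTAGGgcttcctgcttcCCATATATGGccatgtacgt
FOS: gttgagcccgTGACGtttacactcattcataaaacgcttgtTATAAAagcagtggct
The promoters of DUSP6, SPRY2, SPRY4, SPRED1, EGR1 and FOS, from 250 bases before to 50 after the start site, were searched on both strands. A gene was counted if any of its promoters matched, whereas the percentages are shares of single promoters. A gene with several start sites thus had more chances of a match. Those of MYC, DUSP4, ETV4 and ETV5 were not searched, so the counts that follow cover none of the members that rose. The CArG box was found in 1 of these 6 genes, EGR1, and in 1.29% of 35116 RefSeq promoters. Boxes outside this window were not searched for, so the lack of a match in FOS or another gene does not mean that it lacks the box. TGACG was found in 4 of the 6 (SPRY2, SPRY4, EGR1 and FOS) and in 24.6% of all promoters, and TATAAA in FOS and in 11.5%. None of the 6 held TGANTCA, TGACGTCA (which contains TGACG) or CACGTG, which 7.71%, 1.85% and 7.26% of all promoters held. A match of letters describes these windows and is not a measured binding site.

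EGR1 (ENSG00000120738, chromosome 5, 138465490 to 138469315) differed little between the genotypes. It measured 1.10, 1.06 and 1.08 FPKM in knockout and 0.972, 1.10 and 1.23 FPKM in WT, so that the knockout values fell inside the WT range. The log2 fold change was -0.02 (standard error 0.14, limma adjusted p = 0.923), and the ratio of fragments per depth was 0.985 with a counting interval of 0.842 to 1.15. FOS (ENSG00000170345, chromosome 14, 75278774 to 75282230) measured 0.667, 0.756 and 0.877 FPKM in knockout and 0.779, 0.899 and 0.864 FPKM in WT. The groups overlapped, and the log2 fold change was -0.13 (standard error 0.16, limma adjusted p = 0.532). FOS rested on 161 fragments in knockout and 158 in WT, with a ratio per depth of 0.903 (counting interval 0.721 to 1.13).

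MYC (ENSG00000136997, chromosome 8, 127735434 to 127741434) gave the most precise change of the 10 genes. It measured 128.1, 129.7 and 125.1 FPKM in knockout and 56.1, 52.1 and 61.5 FPKM in WT. All knockout libraries were near each other and about 2 times above the highest WT library. The means were 127.6 ± 2.36 FPKM (knockout) and 56.5 ± 4.73 FPKM (WT), each with its SD at n = 3, a ratio of 2.26. The log2 fold change was 1.18 with a standard error of 0.06 (limma adjusted p = 1.20e-05). Leaving out WT replicate 3 gave 1.24 (limma adjusted p = 2.75e-05). These levels came from 57703 fragments in knockout and 22583 in WT. Across the 17 alternative settings the log2 fold change ran from 1.09 to 1.29, and MYC met both thresholds in all 17. By mean FPKM, 95.8% of the genes in the table lay below MYC, which ranked 710 of 16760.

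**Figure D2:**
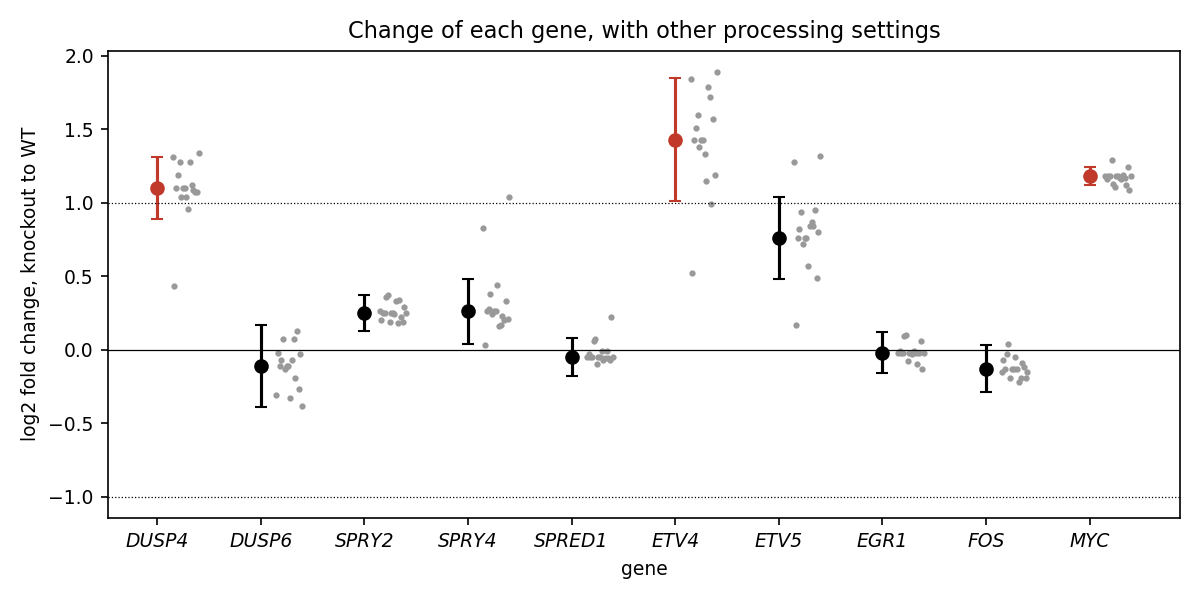
log2 fold change (y axis, YTHDC2 knockout to WT) of each gene with its standard error, red where the adjusted p was under 0.05, and beside it, in grey, the same value under each alternative setting. Dotted lines mark -1 and 1. MYC stays between 1.09 and 1.29, whereas ETV4 runs from 0.52 to 1.89.

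Genes around MYC moved in both directions. Positions were matched by symbol for 97.3% of genes, so tested genes with unmatched symbols are left out here. Within 5 Mb on either side of its start site, 25 other tested genes had a matched position. Of these 25, 3 rose, 9 fell and 13 did not pass, beside the 16.6% and 26.2% of all genes tested that rose and fell. The median log2 fold change of the 25 was -0.17, against -0.09 over all genes tested. Their values ran from -1.41 to 0.59, below that of MYC. The highest was that of SQLE, an enzyme of cholesterol synthesis, at 62.6 FPKM in knockout and 41.6 FPKM in WT (log2 fold change 0.59 with a standard error of 0.07 and a limma adjusted p of 2.67e-04). TRIB1, the nearest of the 25 before MYC, gave 0.22 on the log2 scale (limma adjusted p = 0.0641). It passed without WT replicate 3 (0.27, limma adjusted p = 0.0476) and with median scaling (0.34). GSDMC, the nearest of the 25 after MYC, was below 0.01 FPKM in both genotypes. SQLE, TRIB1 and GSDMC were chosen after their values were seen.

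**Figure D3:**
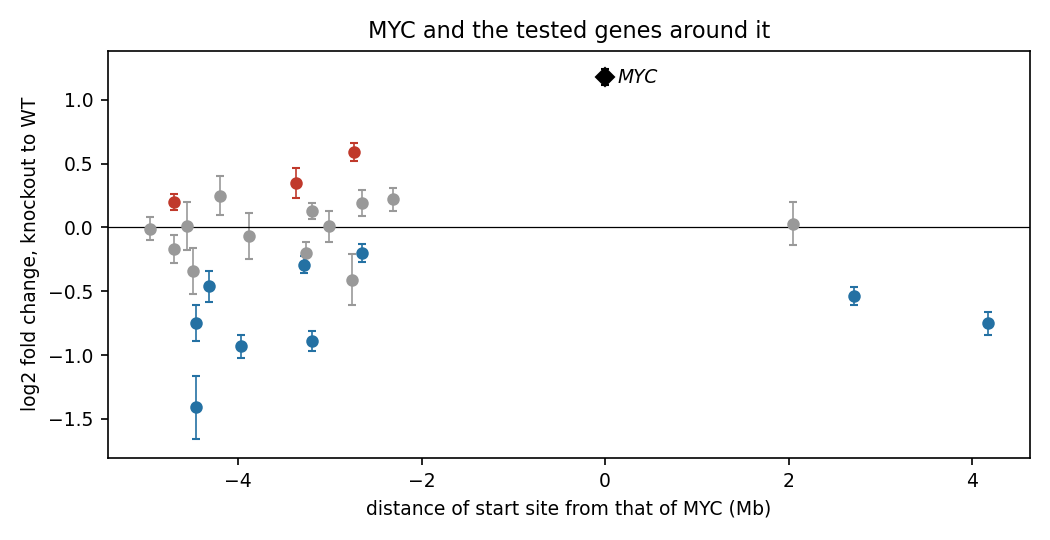
log2 fold change (y axis, YTHDC2 knockout to WT) with its standard error for MYC (black diamond) and the 25 tested genes with a matched position whose start lies within 5 Mb, by distance of their start sites from that of MYC in Mb (x axis). Red points rose, blue points fell and grey points did not pass; each of the 25 lies at or below 0.59, under MYC at 1.18.

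The order of the members by FPKM was much alike at its ends. MYC, SPRY2, SPRED1 and EGR1 led in this order in both genotypes, and ETV5, DUSP6 and SPRY4 came last. MYC and SPRY2 were each apart from the next gene in every library of a genotype. SPRED1 and EGR1 overlapped in both genotypes. In WT, FOS was above DUSP4 in each library, and DUSP4, ETV4 and ETV5 each overlapped with the next lower gene. In knockout, ETV4, FOS and DUSP4 overlapped, at mean levels of 0.803, 0.767 and 0.733 FPKM. Of the 10 genes, 6 averaged under 1 FPKM over the 6 libraries.

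Genes upstream of the members were described next, from lists that hold the ligands, the receptors, the RAS regulators and the kinases. Beside the counts that follow, 16.6% of all genes tested rose and 26.2% fell. When only genes averaging 1 FPKM or more were fitted, 2555 of 11121 rose and 3798 fell. None of the 6 tested EGFR family ligands passed limma, and none did at an unadjusted p under 0.05. Of the 7 listed ligands, 6 averaged under 1 FPKM, where changes are hard to detect. HBEGF was the exception, at 2.35 FPKM over the 6 libraries (log2 fold change -0.24, limma adjusted p = 0.186). EGFR itself measured 2.00 ± 0.168 FPKM (knockout) and 2.08 ± 0.0435 FPKM (WT), each with its SD at n = 3, with a log2 fold change of -0.06 (its standard error was 0.11 and its limma adjusted p 0.720). Of 10 receptors, 5 rose and 1 fell, with a median log2 fold change of 0.33. FGFR3 and FGFR4, receptors for fibroblast growth factors, rose most surely, from 12.9 to 23.9 FPKM and from 10.6 to 19.3 FPKM in the mean (log2 fold changes 0.89 and 0.85, both limma adjusted p = 2.82e-05). ERBB2, the partner of EGFR, rose with a log2 fold change of 0.39, and MET, the receptor for hepatocyte growth factor, fell with -0.35, a call that was lost under 6 of 17 alternatives, among them median scaling, GC correction and leaving out knockout replicate 1 or 3 or WT replicate 2 or 3 (limma adjusted p from 0.0501 to 0.144).

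Of 14 RAS adaptors and regulators, 2 rose and 7 fell, with a median log2 fold change of -0.29. Over all genes tested, 16.6% rose and 26.2% fell. NF1, which encodes neurofibromin, the GTPase activator of RAS, fell with a log2 fold change of -0.48, and SOS1, an exchange factor that loads RAS, with -0.44. RRAS, a RAS relative, rose from 6.46 to 12.6 FPKM in the mean (log2 fold change 0.94, limma adjusted p = 1.51e-04), and the adaptor SHC1 rose with 0.27. Of 14 genes of the RAF, MEK and ERK step, 5 rose and 2 fell, and the median was 0.07. MAPK3, which encodes the kinase ERK1, rose with a log2 fold change of 0.41, MAP2K2, which encodes MEK2, with 0.40, and the ERK-activated kinases RPS6KA2 and RPS6KA1 with 0.61 and 0.36. After correction for GC content MAP2K2, SHC1 and SOS1 did not pass, with log2 fold changes of 0.05, 0.13 and -0.17. The same correction left MAPK3 (0.15), RPS6KA1 (0.19), NF1 (-0.27), ERBB2 (0.19) and FGFR4 (0.55) past the test at values lower in size by more than 1.5 times. None of the upstream genes in these 4 lists met both thresholds.

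Other genes related to the members moved in both directions. Over all genes tested, 16.6% rose and 26.2% fell. Of 8 other MAP kinase phosphatases, DUSP9 rose (log2 fold change 0.53, or 0.18 after GC correction) and DUSP16, DUSP2 and DUSP7 fell (-0.52, -0.61 and -0.21), and the calls of DUSP2 and DUSP7 each held under 9 of 17 alternatives, with larger falls after GC correction (-0.92 and -0.41). DUSP2 did not pass without knockout replicate 2 or 3 or WT replicate 1 or 3, and DUSP7 did not without any 1 knockout library or WT replicate 2 or 3. Of 8 other inhibitors of the pathway, PEBP1, which binds RAF, and IL17RD, an inhibitor of FGF receptors, rose with 0.26 and 0.34, and none fell. IL17RD did not pass without knockout replicate 1 or 2 or WT replicate 2. Of 30 other genes listed as immediate early or ERK-induced, 10 rose and 5 fell, with a median log2 fold change of 0.17. The list also held SRF and the ETS factors ELK1, ELK3 and ELK4, which act upstream of such genes. ELK1 was among the 10 that rose and SRF among the 5 that fell. JUN, a partner of FOS in the factor AP-1, measured 259.7, 275.3 and 234.5 FPKM in knockout and 142.9, 129.7 and 163.6 FPKM in WT. The 3 knockout libraries were all above the WT libraries, and the log2 fold change was 0.82 (standard error 0.09, limma adjusted p = 1.77e-04). MAFF, a small MAF factor, rose from 1.10 ± 0.172 to 2.35 ± 0.101 FPKM (SD, n = 3) and met both thresholds with a log2 fold change of 1.03, at a limma adjusted p of 5.15e-04. MAFF rose in all 17 alternatives but met both thresholds in 12, and its log2 fold change was 0.67 with a pseudocount of 1, 0.83 after GC correction, 0.92 without WT replicate 2 and 1.00 without knockout replicate 2. ELK1, an ETS factor that ERK phosphorylates, rose with 0.55, and BTG2, an antiproliferative gene, fell with -0.43. FOSL1, another AP-1 factor, was the 1 gene of this list that met both thresholds as lower (log2 fold change -1.32 with a standard error of 0.44 and a limma adjusted p of 0.0391). FOSL1 measured 0.0515, 0.564 and 0.253 FPKM in knockout and 0.790, 0.670 and 0.705 FPKM in WT, so the knockout libraries spread widely (it was chosen after its values were seen). FOSL1 kept its call in 7 of 16 alternatives and lost it when any library but knockout replicate 2 was left out, with -0.76 on the log2 scale without knockout replicate 1.

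**Figure D4:**
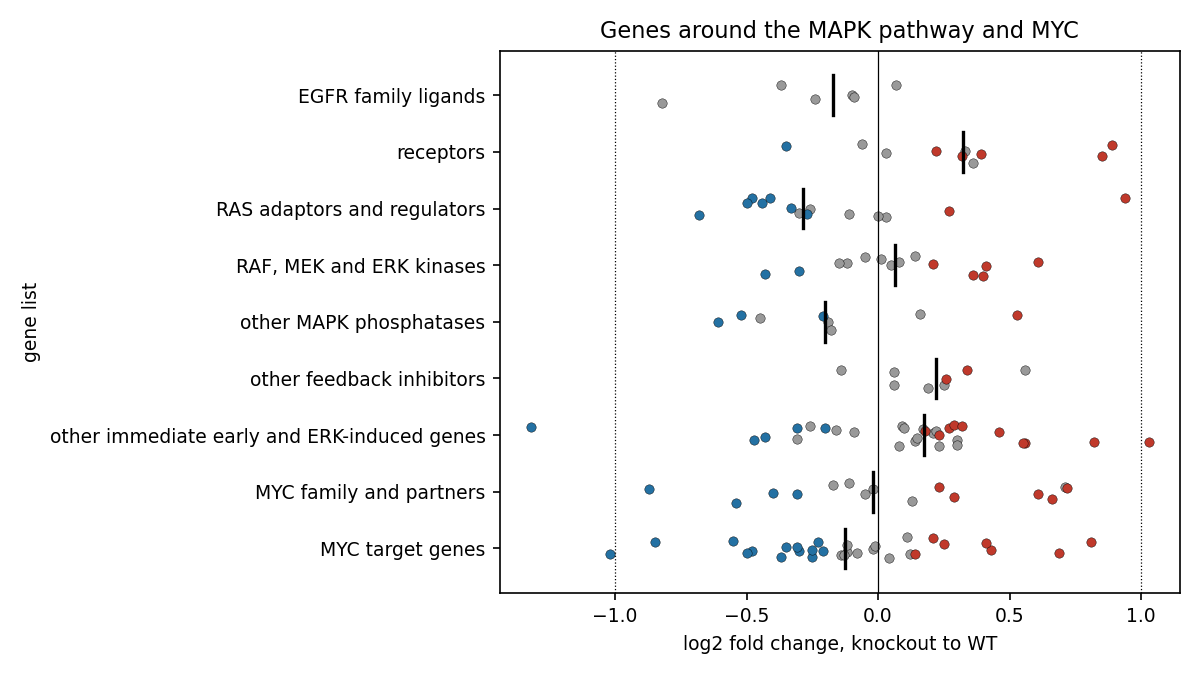
Change on the log2 scale (x axis, knockout to WT) of each tested gene in 9 lists around the pathway, 1 point per gene, with red for genes that rose, blue for genes that fell, grey for genes that did not pass and a black bar at each list's median. Medians run from -0.29 for RAS adaptors and regulators to 0.33 for receptors, and dotted lines mark -1 and 1.

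MYC works within a network of partners and antagonists, of which 5 of 15 rose and 4 fell, beside 16.6% and 26.2% of all genes tested. MAX, the obligate partner of MYC, measured 22.5, 20.3 and 21.1 FPKM in knockout and 29.3, 26.0 and 24.5 FPKM in WT. Every knockout library was below every WT library, with a log2 fold change of -0.31 (its standard error was 0.07 and its limma adjusted p 0.00884), and with median scaling MAX did not pass (-0.20, limma adjusted p = 0.138). MXD4, an antagonist that competes for MAX, rose with a log2 fold change of 0.61 and a standard error of 0.06 (0.30 after GC correction), and MYCL, a relative of MYC, from 2.87 ± 0.132 to 4.61 ± 0.289 FPKM (SD, n = 3, log2 fold change 0.66). FBXW7, a ubiquitin ligase subunit that targets MYC protein, fell from 3.95 ± 0.284 to 2.10 ± 0.0438 FPKM (SD, n = 3), a log2 fold change of -0.87 with a limma adjusted p of 2.28e-04.

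Of 30 genes known as targets of MYC, 7 rose, 13 fell and 10 did not pass, beside 16.6% and 26.2% of all genes tested that rose and fell. None of the 30 averaged under 1 FPKM, so 0 of them were low. When only genes averaging 1 FPKM or more were fitted, 2555 of 11121 rose and 3798 fell. The median log2 fold change of the 30 was -0.12, against -0.09 over all genes tested. NOP58, a nucleolar protein, fell from 76.9 ± 12.6 to 37.5 ± 2.31 FPKM (SD, n = 3), with -1.02 on the log2 scale (limma adjusted p = 1.85e-04), and WDR43, which acts in early ribosome assembly, fell with a log2 fold change of -0.85. PA2G4, a growth-regulating RNA-binding protein, rose with 0.43 and APEX1, a DNA repair enzyme, with 0.41. All 4 passed in each of the 17 alternatives. Over the 135 tested genes of the 9 lists, without the members, 37 rose and 35 fell, and with median scaling, which moved the median log2 fold change of all genes from -0.09 to 0.01, 48 rose and 19 fell. Over all genes tested, 2563 rose and 4044 fell, against 3420 and 2704 with median scaling and 3178 and 3219 with quantile normalization.

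Among 11120 other genes that averaged 1 FPKM or more, those whose log2 values followed MYC most closely over the 6 libraries were NOTCH3 (Pearson r = 0.9995), FGFR3 (0.9993) and POLD1 (0.9991), a subunit of DNA polymerase delta. NOTCH3, a receptor, measured 17.1 ± 0.453 FPKM (knockout) and 8.43 ± 0.707 FPKM (WT), each with its SD at n = 3. The 6 points are 2 genotypes of 3 libraries, and 185 genes had an r above 0.99 with MYC. For DUSP6, which rests on few fragments, the nearest genes were DAPK1 (0.9886), LOX (0.9655) and SMAD6 (0.9453). These values describe likeness over the same 6 libraries and carry no test.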

How the data were processed

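The authors deposited 1 table of FPKM values for 16760 genes in 6 libraries, made with GRCh38.p13 as the genome build per the labels. Total RNA was isolated with TRIzol. Which aligner, counter, annotation and strand setting were used is not given in the sources used here. Libraries were grouped by the genotype in their labels. Whole fragments were recovered for all 16760 genes from the steps of the FPKM values (tolerance 0.002), and within a genotype replicates differed by 4.55 to 20.0 times the counting variance.

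Genes detected (FPKM above 0) in 3 or more libraries were fitted with limma 3.58.1 (R 4.3.3, trend and robust moderation, no block) on log2(FPKM + 0.1), and p-values were adjusted by Benjamini-Hochberg over all 15441 of them. The fits and the fragment recovery were also run on simulated data, with the same spread in every library and far fewer changed genes than here. Because that setting differs from these data, the simulation cannot show how well the fits perform here. Fragments of a gene that share a common divisor over all libraries are recovered only up to that divisor. Gene positions and GC content came from GENCODE 29, matched for 97.3% of symbols. Tables were built in Python 3.11.15 (pandas 2.3.3, numpy 2.4.6, scipy 1.17.1).

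The members, gene lists and tests were chosen with earlier results of these data known. Named genes are the members, EGFR, MAX, YTHDC2, per list up to 4 genes that passed, by smallest adjusted p, and the 3 genes most like MYC and DUSP6. The alternatives were pseudocounts of 0.01 and 1, no filter, a filter at a mean of 1 FPKM, median scaling, quantile normalization, a common FPKM total, limma with neither trend nor robust moderation, each library left out in turn, a replicate block, GC correction by lowess, and limma voom on recovered fragments. Other experiments of the study were not analysed here.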

Additional observations from a re-analysis of the deposited data

How the results depend on the processing

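The number of members past the adjusted p was 2 to 4 when 1 library was left out, 4 with a replicate block and 3 with limma voom. It was 1 with a filter at a mean of 1 FPKM, which keeps 4 of the members in the test. The number past both thresholds ran from 1 to 3 when 1 library was left out, and was 1 with that filter and 1 with a pseudocount of 1, under which DUSP4 gave 0.43 and ETV4 0.52 on the log2 scale. PEBP1 gave 0.13 with quantile normalization. ETV4 did not pass when limma used neither trend nor robust moderation (adjusted p = 0.0623), and ETV5 passed with median scaling (0.0438), quantile normalization (0.0260), a replicate block (0.0269) and GC correction (0.0480). Whether same-numbered libraries were paired is not given in the sources used here. Deviations of same-numbered libraries from their group means correlated at 0.212, 0.125 and -0.0581, which cannot settle it. Among genes that did not pass, signs turned for DUSP6 (0.07 with quantile normalization, 0.07 without knockout replicate 3 and 0.13 without WT replicate 2, the lowest with 1 library left out being -0.33), SPRED1 (0.06 with median scaling, 0.07 with quantile normalization and 0.22 with GC correction), EGR1 (0.09, 0.10 and, without WT replicate 3, 0.06, the lowest with 1 library left out being -0.10), FOS (0.04 with quantile normalization) and EGFR (0.06, 0.05 and 0.01). The list genes past the adjusted p numbered 56 to 78 in all alternatives. Over all genes, 113 higher and 307 lower met both thresholds, against 184 and 505 with a pseudocount of 0.01, 29 and 69 with 1, 80 and 126 with the FPKM filter, 183 and 232 with median scaling, 195 and 206 with quantile normalization, 54 and 292 with GC correction, and 168 and 479 with limma voom; the causes were not tested. Depth limits DUSP6 and SPRY4, with at most 14 fragments per library.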
